A study of Mus musculus with 7 samples.

Results

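Muscle stem cells with transcripts of cell division and no detected transcript of the differentiation regulator Myog were singled out in 2 single-cell RNA libraries of mouse muscle stem cells (MuSCs, or satellite cells) sorted 60 h after injury. A cell was a member when it had at least 200 detected genes and at most 10% of its UMIs (unique molecular identifiers, 1 per captured RNA molecule) from mitochondrial genes. It also had 0 UMIs of Ptprc, Pecam1, Tnmd and Myog, at least 1 UMI summed over Cdh15, Des, Myf5 and Myod1, and at least 2 UMIs summed over Top2a, Mki67, Cdk1 and Birc5. The rule found 1488 cells, 770 in injured library 1 and 718 in injured library 2, among 3550 barcodes in these libraries and 15474 in the series. They are called cycling cells here. Cells of the same libraries that met every other condition and had 0 UMIs of the 4 division genes numbered 449 (75 and 374) and are called 0-UMI cells.

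The injured MuSCs were obtained by flow cytometry from TE-EDL muscles of C56BL/6J mice (strain spelled as in the labels) 60 h after 2 µM notexin, a snake venom toxin that destroys muscle fibres. The labels give them no genotype, age, sex or number of animals, so the spread between the 2 libraries may be technical. Comparison material came from the same strain: 1 library of primary myoblasts, passaged in culture with 2.5 ng/µl bFGF and 10% horse serum after isolation from hindlimbs of 3-month-old wild-type mice, 2 libraries of sorted MuSCs from homeostatic muscle with no age given, and 2 libraries of all live cells from hindlimbs of 3-month-old wild-type mice. No transgene or other manipulation is named for any group.

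Satellite cells rest under the basal lamina of the muscle fibre and enter the cell cycle after damage, when they express Myf5 and Myod1 and multiply as myoblasts. Myog, a transcription factor of the same family, is switched on as myoblasts commit to differentiation, and the CDK inhibitors p21 (Cdkn1a) and p57 (Cdkn1c) hold committed cells out of the cycle. Transcripts of the mitotic programme build up during G2 and M under the MuvB complex, which binds the CHR element, and NF-Y, which binds CCAAT boxes, whereas the S phase programme is driven by E2F.

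The 4 genes whose UMIs defined a cycling cell encode DNA topoisomerase II alpha (Top2a), the proliferation antigen Ki-67 (Mki67), the kinase of mitotic entry (Cdk1) and survivin (Birc5), a subunit of the chromosomal passenger complex. Their promoters, 250 bases before to 50 bases after the annotated start, are printed 5′ to 3′ on the gene's strand from RefSeq's GRCm38.p6 annotation because they show which of these elements lie in the genes that defined the gate. Capitals mark the CHR core TTTGAA and the CCAAT box on either strand. The windows lie at chr11:99024140-99024439 (Top2a, minus strand), chr7:135716330-135716629 (Mki67, minus), chr10:69352863-69353162 (Cdk1, minus) and chr11:117848987-117849286 (Birc5, plus).
Top2a: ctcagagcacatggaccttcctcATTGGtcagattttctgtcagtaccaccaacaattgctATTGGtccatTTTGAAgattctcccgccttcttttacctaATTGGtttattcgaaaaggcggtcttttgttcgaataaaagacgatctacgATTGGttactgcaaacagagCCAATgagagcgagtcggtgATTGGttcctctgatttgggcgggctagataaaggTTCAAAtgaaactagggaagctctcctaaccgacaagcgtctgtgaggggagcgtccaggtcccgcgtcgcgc
Mki67: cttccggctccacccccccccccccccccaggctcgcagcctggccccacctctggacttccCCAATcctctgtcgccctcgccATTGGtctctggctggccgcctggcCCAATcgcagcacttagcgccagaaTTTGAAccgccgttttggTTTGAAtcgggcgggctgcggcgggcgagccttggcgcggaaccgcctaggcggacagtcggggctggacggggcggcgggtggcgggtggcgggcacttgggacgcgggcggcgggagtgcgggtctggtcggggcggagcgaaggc
Cdk1: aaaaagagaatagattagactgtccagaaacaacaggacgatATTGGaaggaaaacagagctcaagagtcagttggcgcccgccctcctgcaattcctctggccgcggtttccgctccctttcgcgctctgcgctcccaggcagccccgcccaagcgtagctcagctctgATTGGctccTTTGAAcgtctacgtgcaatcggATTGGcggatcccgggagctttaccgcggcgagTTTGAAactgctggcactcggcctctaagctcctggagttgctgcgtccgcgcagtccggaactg
Birc5: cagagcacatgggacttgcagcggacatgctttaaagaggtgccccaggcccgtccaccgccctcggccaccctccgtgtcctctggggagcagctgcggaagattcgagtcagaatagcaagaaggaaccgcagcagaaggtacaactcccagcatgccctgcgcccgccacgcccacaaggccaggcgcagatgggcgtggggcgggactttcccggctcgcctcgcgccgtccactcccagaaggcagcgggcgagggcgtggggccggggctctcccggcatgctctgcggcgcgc

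Top2a held 2 CHR cores and 6 CCAAT boxes, and Mki67 and Cdk1 each held 2 CHR cores and 3 CCAAT boxes. The Birc5 window held neither sequence, which says only that these letters are not in this window. The E2F sequences TTTGGCGC and TTTCCCGC were in none of the 4 windows. Over all 32851 RefSeq windows of this length, 17.9% held TTTGAA, 37.4% held CCAAT, 6.95% held both and 1.56% held an E2F sequence, on either strand. Each motif was searched on its own, so matches that share bases counted for both. Of the 23 G2 and mitotic entry genes with a window, 14 held TTTGAA (60.9%) and 18 held CCAAT (78.3%), and none held an E2F sequence. Of the 37 S phase genes with a window, 6 held TTTGAA (16.2%), 25 held CCAAT (67.6%) and 11 held an E2F sequence (29.7%). These matches describe the sequences and were not tested as binding sites.

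Injured libraries 1 and 2 held 9238859 and 7172165 UMIs in all, with a median of 7196 and 3111 per barcode. Cycling cells were deeper than 0-UMI cells, with medians of 7749.5 and 3875 UMIs in cycling cells and 4964 and 2740 in 0-UMI cells, and medians of 2119 and 1387.5 detected genes in cycling cells and 1585 and 1084.5 in 0-UMI cells. A gate on a minimum number of UMIs selects deep cells by construction, so values after thinning each cell to 2000 UMIs are given beside the shares, and the part of depth in the gene differences was not tested. The 2 injured libraries shared 253 barcodes, against 1 to 16 for any other pair of the 7 libraries. Of these, 187 were deeper in library 1 and 66 in library 2, with a median of 10175 UMIs in the deeper copy and 955 in the shallower. Shared barcodes made up 171 of the cycling cells of library 1 (22.2%) and 36 of those of library 2 (5.01%), against 11 and 38 of the 0-UMI cells. Shares of cells, and counts of called genes within these libraries, are given with and without them. For single genes this is done only where stated. Without them 24 of 40 named genes kept their call against 0-UMI cells and 16 lost it, and all 29 named against Myog-positive cells kept it.

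The label MuSC was checked against a list of 12 myogenic markers. In cycling cells 11 and 10 of the 12 were detected, with Cdh4 at 0 in both libraries and Chodl at 0 in library 2, and their summed level was 1711 and 2066 CPM (UMIs of a gene per 1000000 UMIs of the class), against 1787 and 2231 CPM in 0-UMI cells. The list contains Cdh15, Des, Myf5 and Myod1, of which the rule required a UMI, so part of this sum was fixed by the rule. Without these 4 genes it was 979.9 and 1150.0 CPM in cycling cells and 995.6 and 1148 CPM in 0-UMI cells. Among the genes the rule itself used, cycling cells had 232 and 379 CPM of Myf5, against 259 and 509.9 CPM in 0-UMI cells. Myod1 stood at 221 and 269 CPM in cycling cells and at 185 and 229 CPM in 0-UMI cells. Macrophage and monocyte markers summed to 12.5 and 16.9 CPM in cycling cells, with 9 and 6 of 12 detected, and to 314 and 53.4 CPM in 0-UMI cells, with 8 and 7 detected. Ptprc (0 by the rule) and Csf1r were at 0 in cycling cells of both libraries. A single 0-UMI cell of library 1 held 105 of the 114 macrophage UMIs of its class. Fibro-adipogenic markers summed to 55.2 and 42.6 CPM in cycling cells, with 9 and 9 of 10 detected (Smoc2 at 0 in library 1 and Pdgfra at 0 in library 2), against 207 and 72.6 CPM in 0-UMI cells, with 8 and 7 detected.

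Cycling cells rarely carried all 4 division genes at this depth, and the gate rested mostly on Birc5 and Top2a. Birc5 was detected in 91.3% and 78.0% of the cycling cells of libraries 1 and 2, Top2a in 73.1% and 71.0%, Cdk1 in 56.5% and 44.9%, and Mki67 in 29.7% and 23.4%. All 4 genes were seen together in 101 cells (13.1%) and 35 cells (4.88%), and a single gene supplied every UMI in 104 cells (13.5%) and 135 cells (18.8%). The median cycling cell held 5 and 3 UMIs of the 4 genes, with a maximum of 18 and 13. These values chose the cells and are given as a description. Library 1 is the deeper library, so its higher sums cannot be read as more division.

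The rule fixes how the gating genes vary across its threshold, and their levels are given only to show what it admitted. Over all cycling cells Top2a reached 236 and 322 CPM, Birc5 305 and 351 CPM, Cdk1 127 and 148 CPM and Mki67 47.4 and 67.0 CPM, and all were 0 in 0-UMI cells by the rule. The cells just inside the threshold, with exactly 2 UMIs (130 and 263 cells), had 82.5 and 179.5 CPM of Top2a and 182 and 266 CPM of Birc5. The cells just outside it, with 1 UMI (122 and 340 cells), had 33.3 and 92.3 CPM of Top2a and 103 and 167 CPM of Birc5. The median depth of those 1-UMI cells was 5874 and 2994 UMIs, between that of 0-UMI cells and that of cycling cells. Within the cycling cells 323 and 269 held 4 to 7 UMIs and 195 and 32 held 8 or more.

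Transcripts of mitosis were higher in the highest bin than in 0-UMI cells, and transcripts of DNA replication showed no common order. Ccnb1, the B cyclin that activates Cdk1, stood at 142 and 115 CPM in cells with 8 or more UMIs and at 27.6 and 48.4 CPM in 0-UMI cells. Prc1, the midzone microtubule bundler of cytokinesis, stood at 113 and 125 CPM in the highest bin and at 13.8 and 36.3 CPM in 0-UMI cells. Ube2c, the ubiquitin-conjugating enzyme of the anaphase-promoting complex, stood at 339.8 and 459.5 CPM in the highest bin and at 77.2 and 114 CPM in 0-UMI cells. Mcm6, a subunit of the replicative helicase, stood at 61.7 and 52.2 CPM in the highest bin and at 35.9 and 61.5 CPM in 0-UMI cells. Pcna, the sliding clamp, stood at 144 and 151 CPM in the highest bin and at 135 and 148 CPM in 0-UMI cells. Fry, a large scaffold protein that binds spindle microtubules and NDR kinases, ran the other way in both libraries, with 245 and 292 CPM in the highest bin and 449.5 and 465 CPM in 0-UMI cells. The bins share their libraries and were cut on genes of the same programme, so this order is a description with no test.

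**Figure D1:**
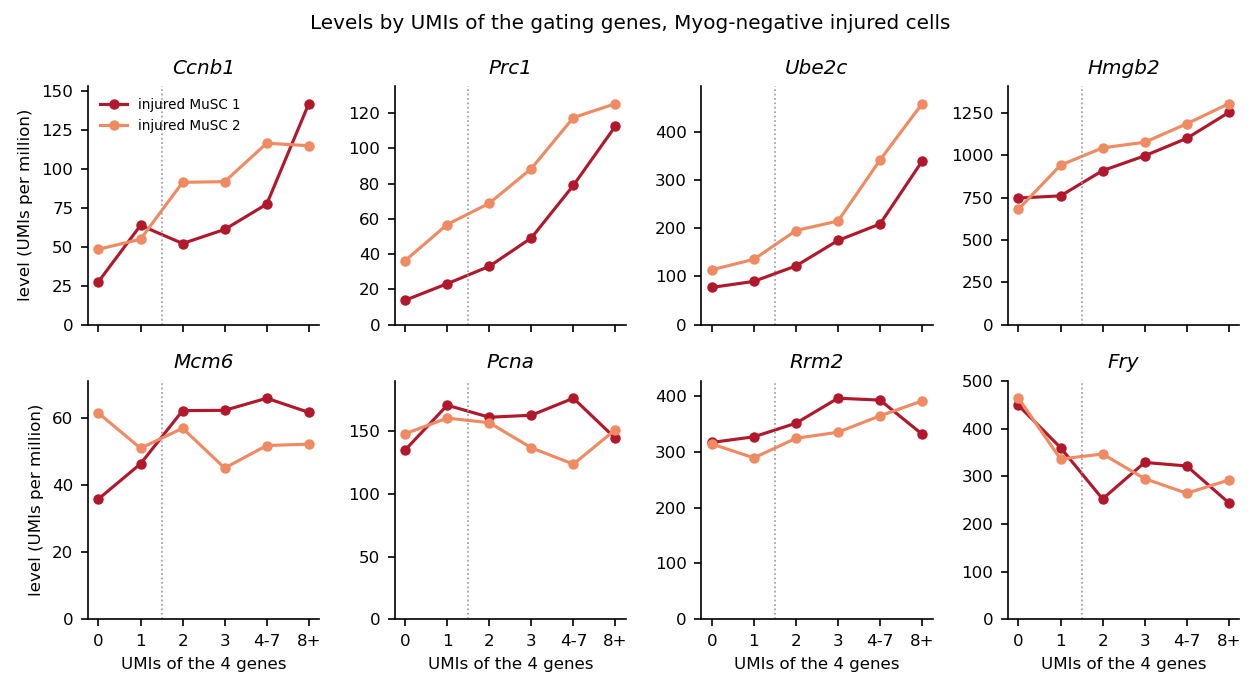
Level (CPM, vertical axis from 0) of 8 genes in Myog-negative injured MuSCs by the number of UMIs of Top2a, Mki67, Cdk1 and Birc5 per cell (horizontal axis), 1 line per injured library, with a dotted line at the gate. Prc1 and Ube2c climb at every bin in both libraries, Ccnb1 is higher in the highest bin than in 0-UMI cells but dips between neighbouring bins, Mcm6, Pcna and Rrm2 show no such order, and Fry is lower in the highest bin than in 0-UMI cells.

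Cycling cells were common among Myog-negative MuSCs after injury and nearly absent from homeostatic MuSCs. They made up 79.6% of 967 Myog-negative gated cells in injured library 1 (exact binomial 95% interval 76.95 to 82.1) and 50.1% of 1432 in library 2 (47.5 to 52.8). After thinning to 2000 UMIs the same gate held 32.5% (29.2 to 35.9) and 28.0% (25.4 to 30.7), with 31 and 376 shallower cells left out. At full depth they outnumbered the 1-UMI and the 0-UMI cells of both libraries, whereas after thinning the order was reversed, with 251 cycling, 259 1-UMI and 262 0-UMI cells in library 1 and 326, 387 and 452 in library 2. Without the shared barcodes the full-depth shares were 78.3% and 51.7%. In homeostatic MuSCs 1 of 1360 and 1 of 1204 cells passed the gate, and 0 and 1 passed after thinning. In total muscle 0 of 181 and 0 of 239 cells passed, which allows a share of up to 2.02% and 1.53% by the exact binomial interval. Cultured myoblasts had 59.8% of 1268 cells at full depth and 22.2% of 3154 after thinning, a larger number because thinning removes Myog UMIs from many cells. The intervals cover counting error only. With 2 injured and 2 homeostatic libraries an exact two-sided permutation test over libraries cannot give a p below 0.333.

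**Figure D2:**
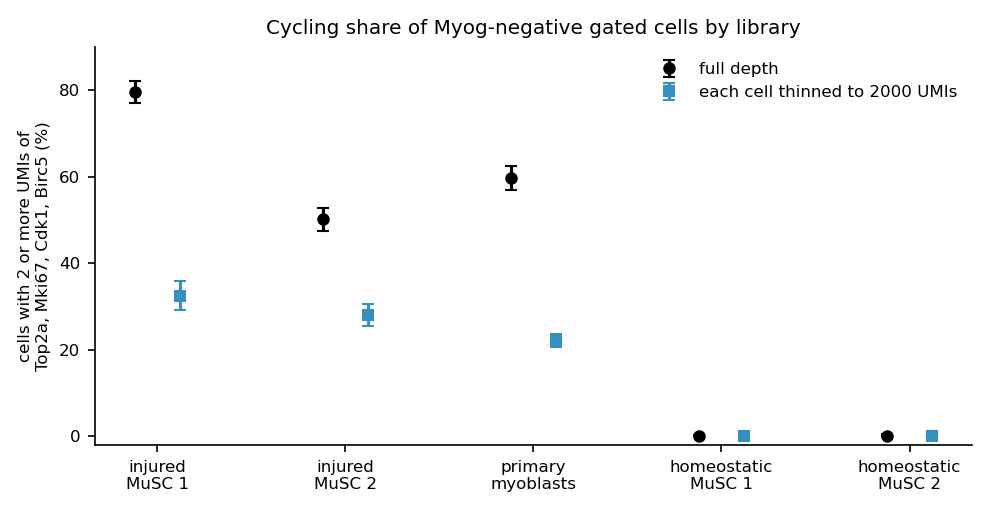
Share of Myog-negative gated cells (percent, vertical axis from 0) with at least 2 UMIs of Top2a, Mki67, Cdk1 and Birc5, by library, at full depth and after thinning to 2000 UMIs, with exact binomial 95% intervals as bars. Both injured libraries lie at 28.0% or more at either depth, and both homeostatic libraries lie near 0.

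Cycling cells were set against 0-UMI cells of the same libraries on summed counts, with edgeR's quasi-likelihood test, the library as a block and Benjamini-Hochberg adjustment. A gene is said to be called where its adjusted p was under 0.05. Of 7846 genes tested, 64 were called higher in cycling cells (0.816%) and 117 lower (1.49%), and the median log2 difference over all genes was 0.00. The design has 4 sums and 1 residual degree of freedom, so the p-values rest on an estimated spread between libraries that is small (biological coefficient of variation 3.53%). Without the library block 0 genes were called in either direction, although 499 had an unadjusted p under 0.05. With 1 injured library left out, 1 sum per class remained, and the spread came from the 2 homeostatic 0-UMI sums added to the fit. The coefficient of variation was then 15.9% without library 1 and 15.8% without library 2. Counts of calls from those fits cannot show the effect of leaving out a library and are not given. Without the shared barcodes 17 genes were called higher (0.217%) and 12 lower (0.153%) of 7820. DESeq2 called 3 higher and 5 lower. The calls below are therefore differences seen inside both libraries, not shown to exceed a spread over animals.

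Mitotic genes were higher together with the 4 gating genes, and histone genes were so at full depth. These lists belong to the programme the gate read, so their counts are a description and nothing is read from their number. Of the G2 and mitotic entry genes 10 of 33 tested were higher and 0 lower, with a median log2 difference of 0.77. Of the kinetochore and centromere genes 8 of 36 were higher (median 0.71), of the spindle, condensin and cytokinesis genes 10 of 37 (median 0.67), and of the replication-dependent histones 4 of 12 (median 1.27), with 0 lower in each. Chromatin and Hmg proteins had 6 of 30 higher (median 0.13). Of 48 S phase genes 2 were higher and 1 lower, with a median of 0.04, and of 22 nucleotide synthesis genes 0 were called (median 0.09). The summed histone list differed by 1.02 and 0.65 on the log2 scale at full depth and by −0.06 and 0.45 after thinning, so in library 1 the difference was not seen at matched depth. The summed S phase list differed by 0.27 and −0.02 at full depth.

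Several of these genes differed in the same direction in both libraries at full depth, by unlike amounts for genes such as H2afx and Fen1. Ccna2, the A cyclin of S phase and G2, had 99.5 and 101 CPM in cycling cells, against 49.6 and 43.3 CPM in 0-UMI cells, a log2 difference of 1.09 ± 0.20 (SE). Bub3, a spindle checkpoint protein, had 113 and 132 CPM in cycling cells, against 46.9 and 61.5 CPM in 0-UMI cells (1.09 ± 0.18). Tubb5, a beta tubulin, had 1981 and 2297 CPM in cycling cells, against 1398 and 1615 CPM in 0-UMI cells (0.44 ± 0.05). In each the lower cycling library stood above the higher 0-UMI library. Spc25, an outer kinetochore protein, had 60.0 and 69.0 CPM in cycling cells and 24.8 and 28.2 CPM in 0-UMI cells (1.22). Hist1h1b, a linker histone, had 38.0 and 31.5 CPM in cycling cells, against 11.03 and 11.09 CPM in 0-UMI cells (1.53). H2afx, the histone variant that is phosphorylated at DNA breaks and is made with the replication histones, had 112 and 118 CPM in cycling cells, against 27.6 and 55.4 CPM in 0-UMI cells (1.26 ± 0.19). Among replication genes Fen1, the flap endonuclease, had 37.9 and 36.9 CPM in cycling cells, against 8.27 and 19.2 CPM in 0-UMI cells (1.17). Ung, which removes uracil from DNA, ran the other way with 62.8 and 55.1 CPM in cycling cells and 74.5 and 101 CPM in 0-UMI cells (−0.71). The 0-UMI sum of library 1 held 362586 UMIs at full depth, so the levels of Fen1 and Hist1h1b there rest on few UMIs. The 3′ ends of Prc1, Ube2c and Ccnb1 have near-identical copies elsewhere in the annotation, so their counts may have been split.

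Outside the cell cycle lists 24 of 7610 genes were called higher in cycling cells (0.315%) and 116 lower (1.52%). Among the 24 were further cell division genes that the lists lack, such as the centrosome kinase Nek2 and the abscission protein Cep55, named after their values were seen. Nek2 had 21.0 and 16.2 CPM in cycling cells, against 2.76 and 7.05 CPM in 0-UMI cells, and Cep55 had 30.3 and 39.9 CPM in cycling cells, against 13.8 and 12.1 CPM in 0-UMI cells. Arl6ip1, a membrane-shaping protein of the endoplasmic reticulum, had 143 and 177 CPM in cycling cells, against 63.4 and 119 CPM in 0-UMI cells, a log2 difference of 0.67 ± 0.15 (edgeR adjusted p = 0.00085), and its adjusted p was 0.091 without the shared barcodes. Myadm, a membrane protein of lipid rafts, had 171 and 212 CPM in cycling cells, against 124 and 132 CPM in 0-UMI cells (0.55 ± 0.13, edgeR adjusted p = 0.0038), with an adjusted p of 0.2 without the shared barcodes. Both were higher in cycling cells of both libraries, with no overlap between the classes.

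The genes that were lower in cycling cells included abundant regulators of the actin skeleton. Tmsb4x, thymosin beta 4, which sequesters actin monomers, had 1773 and 1649 CPM in cycling cells, against 2496 and 1995 CPM in 0-UMI cells. It fell by 0.44 ± 0.05 on the log2 scale (edgeR adjusted p = 1.7e-18), and was called without the shared barcodes (−0.40) and after thinning (−0.22). Its relative Tmsb10 fell by 0.29 ± 0.03 (edgeR adjusted p = 1.9e-19) and was called in the same 2 alternatives, with the limit that 1 near-identical copy exists. S100a6, a calcium-binding protein, had 3008 and 2491 CPM in cycling cells, against 3585 and 2732 CPM in 0-UMI cells (−0.25, edgeR adjusted p = 2.7e-07). Its classes overlapped between libraries, and it was not called without the shared barcodes (adjusted p = 0.092) or after thinning. Of the list of galectins, S100 proteins and cytoskeleton 5 of 27 were lower and 0 higher, against 1.49% lower over all genes.

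A second group of lower genes comprised secreted, membrane and signalling genes. Ifitm3, an interferon-induced membrane protein, had 422 and 347 CPM in cycling cells, against 659 and 511 CPM in 0-UMI cells, and fell by 0.66 ± 0.08 (edgeR adjusted p = 2.2e-13). Fry had 289.5 and 299 CPM in cycling cells, against 449.5 and 465 CPM in 0-UMI cells, and fell by 0.70 ± 0.09 (edgeR adjusted p = 1.2e-11). Plau, the urokinase plasminogen activator, had 22.3 and 36.9 CPM in cycling cells, against 96.5 and 64.5 CPM in 0-UMI cells, and fell by 1.40 ± 0.22 (edgeR adjusted p = 1.6e-07). All 3 were lower in cycling cells of both libraries with no overlap between the classes and were called without the shared barcodes, but none was called after thinning, where the log2 differences were −0.28 for Ifitm3, −0.27 for Fry and −0.47 for Plau. Spry2, a feedback inhibitor of FGF signalling, was singled out after its values were seen, with 288 and 387 CPM in cycling cells, against 576 and 458.5 CPM in 0-UMI cells (−0.62 ± 0.09, edgeR adjusted p = 7.2e-10), and it was not called without the shared barcodes (adjusted p = 0.063) or after thinning (−0.23). Insig1, which retains the sterol sensor in the endoplasmic reticulum, had 121 and 206 CPM in cycling cells, against 201 and 278 CPM in 0-UMI cells (−0.59, edgeR adjusted p = 0.00012). Col3a1, a fibrillar collagen chain, had 25.4 and 17.9 CPM in cycling cells, against 80.0 and 33.3 CPM in 0-UMI cells (−1.35, edgeR adjusted p = 5e-05). Col3a1 is also a fibro-adipogenic marker, and 3 of 4 tested markers of that list were lower. The fibro-adipogenic and macrophage sums given above were also lower in cycling cells, and their part in these differences was not tested. When cells with 3 or more macrophage-marker UMIs were left out, an alternative added after the data were seen, the log2 difference of the chemokine Cxcl2 was −0.39 in place of −1.53, that of the lysosomal protease Ctsb −0.37 in place of −1.34, and that of the saposin precursor Psap −0.25 in place of −0.75, and none of these 3 was called.

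Cxcl1, Igfbp5, Jag1 and Sik1 were lower in cycling cells, by calls that were lost without the shared barcodes. Cxcl1, a neutrophil-attracting chemokine, had 279.6 and 297 CPM in cycling cells, against 416.5 and 358 CPM in 0-UMI cells, and fell by 0.45 ± 0.10 (edgeR adjusted p = 0.00037). Igfbp5, a binding protein of insulin-like growth factors, had 59.7 and 62.6 CPM in cycling cells, against 102 and 93.7 CPM in 0-UMI cells (−0.72, edgeR adjusted p = 0.0042). Jag1, a Notch ligand, had 23.1 and 27.4 CPM in cycling cells, against 80.0 and 38.3 CPM in 0-UMI cells (−1.14, edgeR adjusted p = 0.00082). Sik1, a salt-inducible kinase, had 42.8 and 55.8 CPM in cycling cells, against 77.2 and 91.7 CPM in 0-UMI cells (−0.82, edgeR adjusted p = 0.0014). The classes of each gene did not overlap, and none of the 4 was called without the shared barcodes, where the adjusted p-values ran from 0.095 to 0.29. Of the list of growth factors and secreted signals 5 of 19 tested were lower and 0 higher, against 1.49% lower over all genes. The median log2 difference of the list was −0.31. The summed level of that list differed by −0.47 and −0.05 at full depth and by −0.23 and 0.10 after thinning, so library 2 showed little or none of it. Of 10 Notch pathway genes 1 was lower, with a median of 0.08, and of 29 niche receptors and adhesion genes 0 were called.

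Some oxidative phosphorylation genes were lower by small amounts. Of 74 tested 0 were called higher and 11 lower, against 1.49% lower over all genes, with a median log2 difference of −0.12. None of the tricarboxylic acid cycle (20 tested), glycolysis (18), ribosome biogenesis (37) or proteasome (31) genes was called. Cox6b1, a subunit of cytochrome c oxidase, had 1207 and 968 CPM in cycling cells, against 1310 and 1135 CPM in 0-UMI cells (−0.24, edgeR adjusted p = 0.00099), a call lost without the shared barcodes. Mt2, a metallothionein, had 1442 and 1310 CPM in cycling cells, against 1495 and 1562 CPM in 0-UMI cells (−0.23, edgeR adjusted p = 0.0006), also lost without them.

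**Figure D3:**
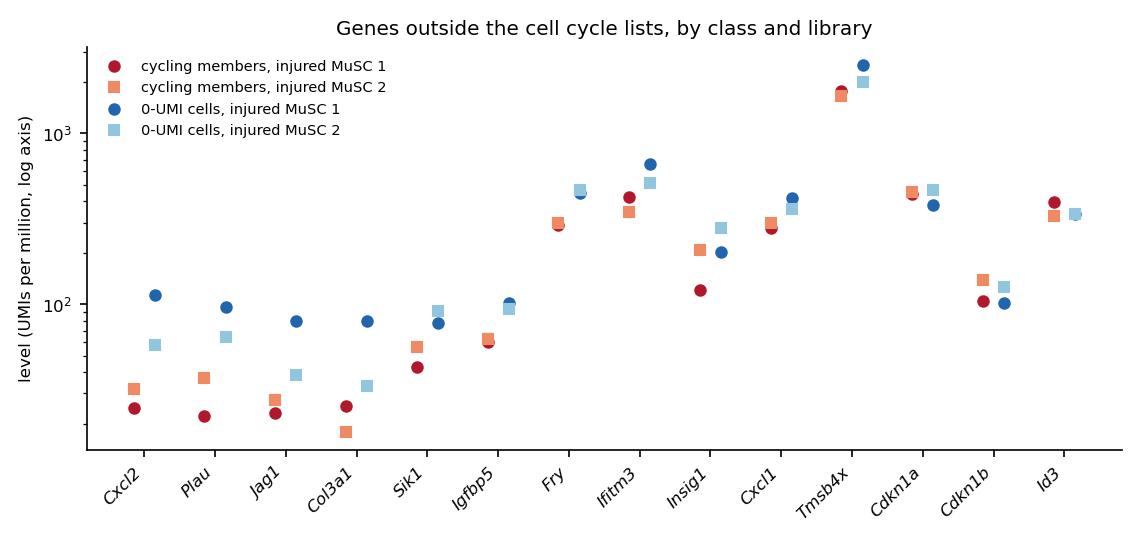
Level (CPM, logarithmic axis) of 14 genes outside the cell cycle lists in cycling cells and in 0-UMI cells, with 1 point per injured library. Plau, Jag1, Col3a1, Sik1, Igfbp5, Fry, Ifitm3, Insig1, Cxcl1 and Tmsb4x are lower in cycling cells within each library, as is Cxcl2, whose call is lost without macrophage-marker cells. The classes of Insig1 overlap across libraries, as do those of Cdkn1a, Cdkn1b and Id3, which were not called. Col3a1 is also a fibro-adipogenic marker.

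Neither the brakes of the cell cycle nor the myogenic regulators were called between cycling and 0-UMI cells. Of 19 tested genes of CDK inhibitors and cell cycle exit none passed, with a median log2 difference of −0.04, and of 23 myogenic transcription factors none passed (median 0.08). Cdkn1a, which encodes p21, had 440.3 and 455 CPM in cycling cells, against 378 and 468 CPM in 0-UMI cells, a difference of −0.01 ± 0.08 (edgeR adjusted p = 0.99). Cdkn1b, which encodes p27, had 104 and 139 CPM in cycling cells, against 102 and 126 CPM in 0-UMI cells (0.05, edgeR adjusted p = 0.96). Both CDK inhibitors overlapped between classes. Cdkn2a, the locus of p16 and p19Arf, had 51.5 and 43.0 CPM in cycling cells, against 30.3 and 24.2 CPM in 0-UMI cells, without overlap, yet its difference of 0.74 ± 0.26 did not pass (edgeR adjusted p = 0.13). The inhibitors of differentiation Id1, Id2 and Id3 had 203 and 151, 287.5 and 289.9, and 396 and 328 CPM in cycling cells, against 190.3 and 167, 234 and 255, and 336.5 and 338 CPM in 0-UMI cells, and none passed. The chromatin protein Hmga2, which promotes MuSC proliferation, had 89.99 and 96.4 CPM in cycling cells, against 66.2 and 75.6 CPM in 0-UMI cells (0.32, edgeR adjusted p = 0.52). None of 20 tested G1 cyclins and kinases or 17 p53 targets passed either, and of 16 quiescence-associated genes 2 were lower. Over all genes 1.49% were lower. A p that misses the threshold does not show that the classes were alike.

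Cycling Myog-negative cells were next set against Myog-positive cells of the same libraries (200 and 334 cells), which carried 739 and 1060.0 CPM of Myog, with the same test. Myog-positive cells were not selected on the division genes, and their median depth was 7373.5 and 3247 UMIs, closer to that of the cycling cells than the depth of 0-UMI cells was. Of the Myog-positive cells 120 and 103 also had at least 2 UMIs of the 4 division genes, so the class is not one of cells outside the cycle. Of 8103 genes 192 were called higher in cycling cells (2.37%) and 379 lower (4.68%). Without the shared barcodes 254 of 7907 were higher (3.21%) and 416 lower (5.26%). Outside the cell cycle and differentiation lists, which the 2 gates read, 140 of 7832 genes were higher (1.79%) and 349 lower (4.46%). Without the library block 5 were higher and 102 lower. Fits with 1 injured library left out again took their spread from the homeostatic sums, so their counts cannot show the effect of leaving out a library. DESeq2 called 14 higher and 70 lower. Macrophage markers summed to 12.5 and 16.9 CPM in cycling cells and 15.6 and 11.2 CPM in Myog-positive cells, and fibro-adipogenic markers to 55.2 and 42.6 CPM in cycling cells and 35.7 and 60.2 CPM in Myog-positive cells. The spread between libraries was again small (biological coefficient of variation 3.26%, 1 residual degree of freedom).

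Genes of muscle contraction were at low levels in the cycling cells. Of 34 differentiation and fusion genes tested 29 were lower and 0 higher, with a median log2 difference of −1.96, a contrast that the Myog gate made and from which nothing is read. Mylpf, the fast regulatory myosin light chain, had 12.6 and 30.4 CPM in cycling cells, against 259 and 435.5 CPM in Myog-positive cells (−4.11). Acta1, skeletal actin, had 9.18 and 7.10 CPM in cycling cells, against 92.7 and 251 CPM in Myog-positive cells (−4.13). The mitotic lists, which the gate on division genes read, ran the other way, with 11 of 35 G2 and mitotic entry genes, 10 of 35 kinetochore genes and 13 of 37 spindle genes higher, and only the tubulin Tubb6 lower among them.

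CDK inhibitors and cell cycle exit genes were lower in cycling cells in 5 of 18 tested and higher in 1. Over all genes 4.68% were lower and 2.37% higher. Exit from the cycle goes with the commitment that the Myog gate read, so these counts are a description. Part of the Myog-positive cells carried the division genes as well, as given above. Cdkn1c, which encodes p57, had 9.84 and 12.2 CPM in cycling cells, against 102 and 93.8 CPM in Myog-positive cells. It fell by 3.22 ± 0.18 on the log2 scale (edgeR adjusted p = 4.5e-53) and was called the same way in all 16 alternatives. Cdkn1a had 440.3 and 455 CPM in cycling cells, against 662 and 727 CPM in Myog-positive cells, and fell by 0.66 ± 0.06 (edgeR adjusted p = 3.3e-26). Both inhibitors were lower in cycling cells of both libraries with no overlap, although Cdkn1a remained above 440 CPM in the cycling cells. The growth arrest genes Gadd45g and Gadd45a and the antiproliferative gene Tob1 completed the lower members. Gadd45g had 142 and 115 CPM in cycling cells, against 187 and 208 CPM in Myog-positive cells (−0.62, edgeR adjusted p = 8.6e-09), and the differences were −0.50 for Gadd45a and −0.64 for Tob1. Cdkn2d, which encodes p19Ink4d, was the higher member, with 19.8 and 28.4 CPM in cycling cells and 9.08 and 16.4 CPM in Myog-positive cells (0.92, edgeR adjusted p = 0.011). Cdkn1b was not called, with 104 and 139 CPM in cycling cells and 113 and 106 CPM in Myog-positive cells (0.09, edgeR adjusted p = 0.8).

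Of 23 myogenic transcription factors 4 were lower and 1 higher in cycling cells, against 4.68% lower and 2.37% higher over all genes. Mef2a, a partner of Myog on muscle gene promoters, had 62.1 and 71.4 CPM in cycling cells, against 144 and 171 CPM in Myog-positive cells, and fell by 1.26 ± 0.11 (edgeR adjusted p = 2.2e-23). Mef2c had 0.98 and 1.02 CPM in cycling cells, against 9.08 and 7.75 CPM in Myog-positive cells (−3.08, edgeR adjusted p = 1.3e-05). The E proteins Tcf4 and Tcf12, dimer partners of the MyoD family, fell by 0.36 (edgeR adjusted p = 0.0082) and 0.45 (edgeR adjusted p = 0.0022). The higher member was Hmga2, a chromatin protein that is also in the cell cycle lists. It had 89.99 and 96.4 CPM in cycling cells and 76.5 and 43.0 CPM in Myog-positive cells (0.56, edgeR adjusted p = 0.0016). Among genes of the rule, given as values, Myf5 was at 232 and 379 CPM in cycling cells and 178 and 257 CPM in Myog-positive cells, while Myod1 was at 221 and 269 CPM in cycling cells and 320.3 and 355 CPM in Myog-positive cells.

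Of 19 growth factors and secreted signals 6 were higher in cycling cells than in Myog-positive cells and 3 lower, with a median log2 difference of 0.18. Over all genes 2.37% were higher and 4.68% lower. Cxcl1 had 279.6 and 297 CPM in cycling cells, against 172 and 174 CPM in Myog-positive cells, and was higher by 0.71 ± 0.08 (edgeR adjusted p = 4e-14). Ccl2, a monocyte-attracting chemokine, had 81.6 and 100.1 CPM in cycling cells, against 68.7 and 43.0 CPM in Myog-positive cells (0.61, edgeR adjusted p = 0.00064), and the growth factor gene Pdgfa differed by 0.44. Cxcl1 thus stood between 0-UMI cells, where it was higher, and Myog-positive cells, where it was lower, in both libraries. Tagln2, an actin-binding protein, had 497 and 431 CPM in cycling cells, against 309.9 and 237.5 CPM in Myog-positive cells (0.73 ± 0.07, edgeR adjusted p = 1.1e-21). Ccnd1, the D cyclin of G1, had 169.5 and 188 CPM in cycling cells, against 141 and 108 CPM in Myog-positive cells (0.46, edgeR adjusted p = 0.0002). Its relative Ccnd3, which is induced during myogenic differentiation, had 60.3 and 62.2 CPM in cycling cells, against 85.6 and 104 CPM in Myog-positive cells (−0.64), with 1 near-identical copy. Of 21 immediate early genes 3 were higher, among them Klf4 with 103 and 84.6 CPM in cycling cells and 70.0 and 46.5 CPM in Myog-positive cells. The metallothionein Mt1 had 2345 and 2458 CPM in cycling cells, against 1808 and 2003 CPM in Myog-positive cells (0.31, edgeR adjusted p = 4.8e-14).

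Genes lower in cycling cells outside the differentiation list included imprinted genes, Notch pathway genes and the actin regulators named above. Over all genes 4.68% were lower and 2.37% higher. Of 12 imprinted genes 5 were lower and 0 higher. The imprinted noncoding RNA H19 had 24.8 and 40.9 CPM in cycling cells, against 68.1 and 120 CPM in Myog-positive cells (−1.53, edgeR adjusted p = 2.2e-19). Igfbp5 had 59.7 and 62.6 CPM in cycling cells, against 113.5 and 169.5 CPM in Myog-positive cells (−1.19, edgeR adjusted p = 4.5e-19). Hes6, a Notch antagonist that favours myogenic differentiation, had 97.0 and 82.2 CPM in cycling cells, against 169 and 169 CPM in Myog-positive cells (−0.92, edgeR adjusted p = 2.4e-15), and the Notch ligand gene Dll1 differed by −1.29. Svbp, which partners the tubulin-detyrosinating vasohibins, had 126 and 151 CPM in cycling cells, against 378 and 590.4 CPM in Myog-positive cells (−1.79, edgeR adjusted p = 3.3e-82). Tmsb4x had 1773 and 1649 CPM in cycling cells, against 2815 and 2468 CPM in Myog-positive cells (−0.65, edgeR adjusted p = 1.4e-53). In each of these genes with printed levels the 2 classes did not overlap, which is a description, as the genes were picked as called. Of 74 oxidative phosphorylation genes 22 were lower and 0 higher, with a median of −0.13. The comparisons with 0-UMI cells and with Myog-positive cells share the cycling cells, so their values stand side by side and are not counted as independent.

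**Figure D4:**
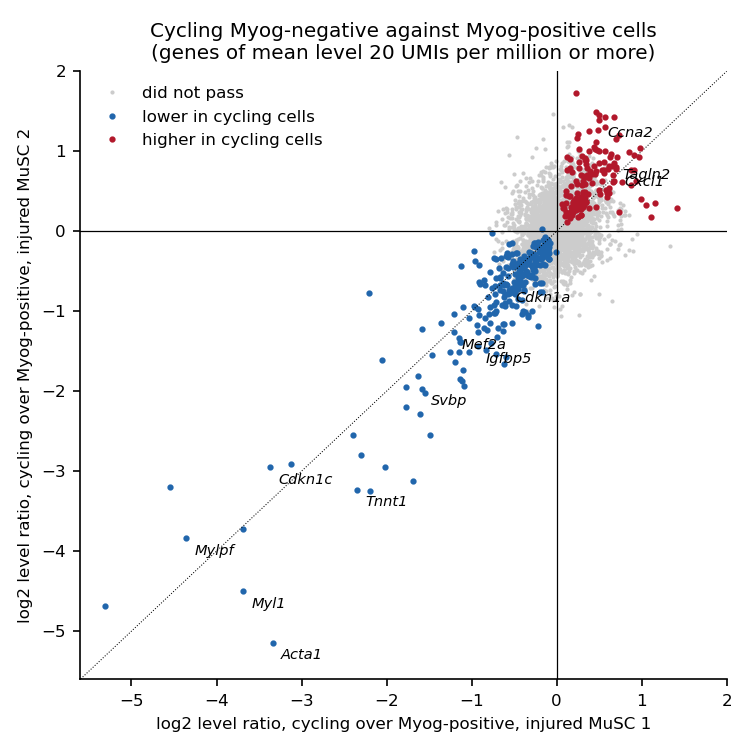
Log2 ratio of cycling over Myog-positive cells in injured library 1 (horizontal axis) and injured library 2 (vertical axis), 1 point per gene with a mean of at least 20 CPM, with called genes coloured by direction. Muscle structural genes and Cdkn1c lie far below 0 in both libraries, and the higher genes lie within a narrower range.

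Myog was detected in a smaller share of the cells that carried the division genes, a difference seen within both libraries and not tested over them. Among gated cells with at least 2 UMIs of the 4 genes, whatever their Myog count, 120 of 890 (13.5%, exact binomial 95% interval 11.3 to 15.9) and 103 of 821 (12.6%, 10.4 to 15.01) had a Myog UMI. Among gated cells with 0 UMIs of the 4 genes, 44 of 119 (37.0%, 28.3 to 46.3) and 153 of 527 (29.0%, 25.2 to 33.1) had one, although these cells are shallower. After thinning the shares were 4.56% and 8.17% with at least 2 UMIs and 18.6% and 23% with 0 UMIs, and without the shared barcodes they were 13.2% and 12.6% against 39.1% and 30.4%. The share was the lower one in cells with at least 2 UMIs in both libraries at each of these settings. The intervals cover counting error only. The rule read both Myog and the division genes, so these shares are a description. In homeostatic MuSCs, at a median depth of 2410 and 2481 UMIs, 1 of 1354 and 0 of 1199 cells with 0 UMIs of the division genes had a Myog UMI. In cultured myoblasts Myog was found in 70.0% of cells with at least 2 UMIs and 73.8% of cells with 0 UMIs, and in 12.95% and 24.0% after thinning.

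Cycling cells of injured muscle differed widely from cycling Myog-negative myoblasts in culture (758 cells, median 24282 UMIs), with 3195 of 11386 genes called higher in the injured cells (28.1%) and 3337 lower (29.3%) by edgeR's quasi-likelihood test on 2 sums against 1. The single myoblast library, its culture, its depth and its source cannot be told apart. The sources differ in sex-linked transcripts too: Xist, the RNA of the inactive X chromosome, had 730.4 and 1068 CPM in injured cells and 0.0536 CPM (1 UMI) in myoblasts. Without scaling beyond library size the counts were 1590 higher and 6905 lower and the median of all genes was −0.88, so only large differences that kept their direction are named. Gaps of the same size stood in pseudogenes and in a broadly expressed gene. Rps12-ps3 had 1247 and 1345 CPM in injured cells and 0 UMIs in myoblasts, and Rpl10-ps3 had 1002 and 1124 CPM in injured cells and 0.107 CPM (2 UMIs) in myoblasts. Sumo2, a small ubiquitin-like modifier, had 1040.0 and 977.5 CPM in injured cells and 2.36 CPM in myoblasts. Whether the libraries were counted in the same way was not tested, and the fold changes below carry that limit. The log2 differences below include the scaling (TMM) between libraries and the CPM do not, so they differ from ratios of the printed CPM. The scaling factors of this fit ran from 0.829 to 1.44.

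Several signalling genes stood high in the injured cells. Cxcl1 had 279.6 and 297 CPM in injured cells, against 0.911 CPM in myoblasts (9.08 on the log2 scale), and Fry had 289.5 and 299 CPM in injured cells, against 1.93 CPM in myoblasts (8.04). The Notch receptor gene Notch2 had 228 and 402 CPM in injured cells, against 12.1 CPM in myoblasts (5.49), and the kinase gene Pim1 had 318.5 and 499.9 CPM in injured cells, against 7.02 CPM in myoblasts (6.65). Cdkn1b had 104 and 139 CPM in injured cells, against 8.46 CPM in myoblasts (4.62). These genes were higher in both injured libraries than in the myoblasts. Eya1, a transcriptional cofactor of the myogenic lineage, had 56.2 and 74.8 CPM in injured cells, against 5.62 CPM in myoblasts (4.31).

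Other cell cycle and lineage genes were lower in the injured cells. Ccnd2, a D cyclin, had 2.295 and 6.09 CPM in injured cells, against 680.5 CPM in myoblasts (−6.76), and Ccnd1 had 169.5 and 188 CPM in injured cells, against 840 CPM in myoblasts (−1.44). Cdkn2a had 51.5 and 43.0 CPM in injured cells, against 471 CPM in myoblasts (−2.51). The satellite cell factor gene Pax7 had 7.21 and 13.9 CPM in injured cells, against 80.9 CPM in myoblasts (−2.26), and Hmga2 had 89.99 and 96.4 CPM in injured cells, against 515 CPM in myoblasts (−1.68). H19 had 24.8 and 40.9 CPM in injured cells, against 447 CPM in myoblasts (−3.03). The 12 genes of this paragraph and the one before it were called the same way in each alternative in which they were tested. Hmga2 was left out by construction in the alternative without the cell cycle lists. None has a near-identical copy.

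The gate separated cells by their cell cycle transcripts less in injured MuSCs than in cultured myoblasts. After thinning to 2000 UMIs, UMIs were counted per cell over 72 S phase genes and 73 G2 and M phase genes. The 72 came from the S phase and nucleotide synthesis lists and the 73 from the G2 and kinetochore lists, without genes of the rule. The median cycling cell of the injured libraries held 12 and 11 UMIs of the S phase genes and 8 and 8 of the G2 and M phase genes. The median 0-UMI cell of these libraries held 13 and 12 UMIs of the S phase genes and 6 and 6 of the G2 and M phase genes. In myoblasts the median cycling cell held 15 UMIs of S phase genes and 15 of G2 and M phase genes, against 7 and 2 UMIs in 0-UMI cells. The S phase and replication list alone, summed, differed by −0.06 and −0.04 (log2) between cycling and 0-UMI injured cells and by 1.46 in myoblasts. The summed G2 and mitotic entry list differed by 0.26 and 0.28 in the injured libraries and by 2.31 in myoblasts after thinning, and by 0.61 and 0.54 in the injured libraries and 2.18 in myoblasts at full depth. After thinning the 0-UMI class of library 1 held 262 cells, against 75 at full depth, so it contained cells that carry UMIs of the division genes or of Myog at full depth. After thinning the spindle list differed by 0.22 and 0.35 in the injured libraries and by 1.61 in myoblasts. In 0-UMI cells the G2 and mitotic entry list summed to 2156 and 2082 CPM in the injured libraries and to 922 CPM in myoblasts.

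**Figure D5:**
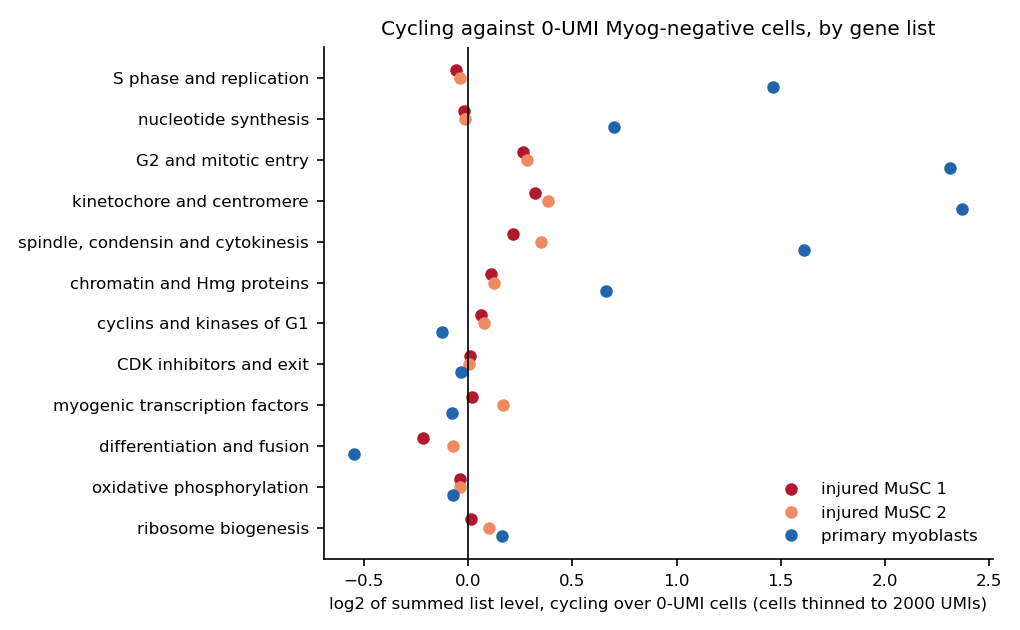
Log2 ratio of the summed level of 12 gene lists in cycling over 0-UMI cells after thinning to 2000 UMIs, with 1 point for each injured library and 1 for the myoblasts, and a line at 0. For the S phase, G2, kinetochore and spindle lists both injured libraries lie near or slightly above 0 (−0.06 to 0.38), and the myoblasts lie between 1.46 and 2.37.

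This difference was tested in 1 edgeR model over the 6 sums, a test added after the data were seen, in which the cycling minus 0-UMI effect of the myoblasts was subtracted from that of the injured libraries. Of 7985 genes 151 were called higher (1.89%) and 244 lower (3.06%) after thinning, and of 11293 genes 18 were higher (0.159%) and 190 lower (1.68%) at full depth. Ccna2 differed between cycling and 0-UMI cells by 0.56 and 1.26 in the injured libraries and by 3.80 in myoblasts, a difference of −2.73. Rrm2, the ribonucleotide reductase subunit of S phase, differed by −0.19 and 0.05 against 2.54 in myoblasts (−2.51), and Mcm6 by −0.37 and −0.40 against 1.42 (−1.72, edgeR adjusted p = 6.1e-06). Both injured libraries lay on the same side of the myoblasts for each of these genes. The model has 1 residual degree of freedom and 1 myoblast library, and after thinning the Myog-negative myoblasts include cells with Myog UMIs at full depth.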

How the data were processed

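The deposited files hold whole-number UMI counts per gene and cell barcode, not normalised, for 7 droplet libraries and 27998 genes. The submitters' processing notes name mm10 as the genome build and list, with no role or setting, Seurat 2.3.4, Cell Ranger 2.2.0 and bcl2fastq 2.17.1. The members and the 32 gene lists were chosen with earlier results of these data known.

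Counts were summed per library and cell class and tested with edgeR 4.0.16 (R 4.3.3) by quasi-likelihood after filterByExpr and TMM scaling, with the library as a block in comparisons within the injured libraries and an adjusted p under 0.05 as the threshold. The block follows from the design, because both classes were taken from the same library. CPM are UMIs of a gene per 1000000 UMIs of the class, without TMM scaling. Means with SD over 2 libraries are not printed, since both values are. The injured and myoblast difference of effects was fitted over 6 sums in edgeR. In counts simulated from these sums, 87% of genes changed by 1 on the log2 scale were recovered against 0-UMI cells, with 11 false calls among 7851 genes, and 96% were recovered against Myog-positive cells, with 1 false call among 8083 genes. The simulation gave all genes the spread that the same fit had estimated and no difference between libraries. It therefore cannot show whether that spread is too small.

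Doublets were kept, as the rule does not remove them, and Scrublet (scanpy 1.11.5) called 14 of 1256 and 17 of 2215 cells. Near-identical copies were sought with blastn 2.17.0 in the last 300 bases of 27645 genes, and 5450 had one (at least 90 aligned bases at 95% identity). Intervals of shares are exact binomial at the 95% level and cover counting error only. Total muscle served for shares alone.

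The text names the genes of the rule. From the lists of myogenic factors and CDK inhibitors it names tested genes with a mean of at least 20 CPM or a call, and from each list up to 4 abundant called members. It also names the 10 largest called changes per direction above 50 CPM that moved the same way in both injured libraries. A subset is given, and exceptions are stated. Alternatives were other scalings, filters, tools, depths, gates and cell exclusions, and each library left out.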

Additional observations from a re-analysis of the deposited data

Results flagged for a closer look

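The difference between cycling and 0-UMI cells was not the same in injured MuSCs and in cultured myoblasts for 6 lists of cell cycle genes, by the edgeR model of the difference itself after thinning to 2000 UMIs. The injured effect was the lower one for 29 of 48 S phase and replication genes, 7 of 22 nucleotide synthesis genes and 4 of 9 replication-dependent histones. It was also lower for 21 of 36 G2 and mitotic entry genes, 23 of 35 kinetochore and centromere genes and 31 of 38 spindle, condensin and cytokinesis genes. Over all 7985 genes 3.06% were called lower. The 6 lists belong to the programme the gate read, so their counts are a description. The median differences were −1.47 for S phase, −2.51 for G2, −2.54 for kinetochore and −2.42 for spindle genes on the log2 scale, against 0.09 over all genes. At full depth the counts were 27 of 50 S phase, 7 of 22 nucleotide synthesis, 24 of 37 G2, 18 of 36 kinetochore and 23 of 40 spindle genes. Over all 11293 genes 1.68% were called lower at that depth. For the histones the count was 1 of 18, so that difference was called mainly after thinning. The comparison has 1 myoblast library, and culture, library and source cannot be told apart.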

How the results depend on the processing

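Cycling against 0-UMI cells gave 64 higher and 117 lower genes, and the counts depended on most settings. They were 3 and 5 with DESeq2, 20 and 41 in cells with GC-rich barcodes, 38 and 75 in cells of at least 3000 UMIs, 33 and 57 over genes without a near-identical copy, 11 and 29 after thinning, 17 and 12 without shared barcodes, and 97 and 62 without scaling. Without the cell cycle lists 22 were higher, and without a count filter 36 were lower. In every comparison the fits with 1 injured library left out took their spread from the homeostatic 0-UMI sums. Counts from these fits therefore cannot show the effect of leaving out a library. Those against 0-UMI cells are not given, and those against Myog-positive cells and myoblasts are printed below with that limit. These fits are also among the alternatives counted below. Without the replicate block 0 genes were called in either direction. Against Myog-positive cells the 192 higher and 379 lower genes became 14 and 70 with DESeq2, 96 and 151 after thinning, 5 and 102 without the replicate block, and 0 higher with 4 to 12 lower when 1 library was left out. Against myoblasts the 3195 higher and 3337 lower genes became 1590 and 6905 without scaling and 1623 and 1301 after thinning, 1091 were lower with DESeq2, and leaving out 1 library gave 1952 to 2158 higher and 2085 to 2283 lower. No paired analysis was possible for the myoblasts because they have 1 library. The difference of effects called 18 higher at full depth, against 151 after thinning. The cycling shares were 32.5% and 28.0% after thinning. The cause was not tested. No named gene changed its called direction. Over all alternatives, 206 of the values of 40 named genes against 0-UMI cells, 97 of those of 29 genes against Myog-positive cells and 0 of those of 13 genes against myoblasts lost the call. The 0-UMI sum of library 1 rests on 75 cells, and low counts there limit what could be called.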
